A study of Solanum lycopersicum with 6 samples.

Results

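Of 35603 annotated tomato genes, 50 were far above their unheated level at both heat times measured, after 1 h and after 6 h at 45 °C. They were selected on RNA-seq counts from leaves. A gene had to reach 50 counts in 2 libraries or more, which 19123 genes did. Counts were converted to CPM, that is, counts relative to the TMM-scaled size of their library, and a level was the mean over both libraries of a time of log2(CPM + 0.5). A gene was chosen when its level at 1 h and its level at 6 h were each at least 3 log2 units, or 8-fold, above its level at 0 h. At 1 h, 431 genes met this limit, at 6 h 136 did, and the 50 genes met it at both times. All libraries came from the fourth leaf of wild-type plants of the cultivar M82, grown at 24 °C with 16 h of light and 4 weeks old at sampling. Plants were kept at 45 °C for 0 h, 1 h or 6 h, with 2 libraries per time from separate biological replicates. Each heated group had the 0 h plants as its only reference, so that heat and the passing of the day cannot be told apart.

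Plants respond to heat within minutes by heat shock transcription factors, which bind short repeated elements in promoters and switch on genes for molecular chaperones. Chaperones of this kind, the small heat shock proteins and the larger families that use ATP, keep other proteins folded or return them to their fold. In leaves kept hot, the first burst of these transcripts usually declines while other genes come up, as the cells acclimate. Which of the 50 genes belong to these families is not said here, because none of the annotation used pairs the IDs with gene products. Genes are therefore given by their IDs in the M82 gene models, and coordinates are those of these models on the M82 assembly.

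For a gene of the set on chromosome 9, the study designed a pair of primers to probe chromatin contacts by chromosome conformation capture. Its capture probes, designed on promoters across the genome, were not analysed here. The primers are shown because they tie a gene of the set, Solyc09g015000.4, to the contact assays of the study. The ID in the primer list of the study is shorter by 1 digit and was taken to mean this gene. They prime genomic DNA and did not measure the transcript.

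Solyc09g015000.4 contact primer, forward: accattctcgagtcctcacg
Solyc09g015000.4 contact primer, reverse: gttcaactctcactgcacca

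Libraries held between 25147160 and 30738632 counts, and TMM scaling factors lay between 0.866 and 1.215. At this depth a CPM of 0.5, the constant added before taking logs, stood for 11.9 to 17.2 counts, so a gene with few counts at 0 h had its difference understated. The levels are relative to all RNA of a leaf sample, in which more cells of a type and more RNA per cell cannot be told apart.

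The differences that chose the genes are given as a description. At 1 h the 50 genes lay between 3.01 and 10.44 log2 units above 0 h, with a median of 4.43. Their 6 h differences lay between 3.01 and 7.45, with a median of 3.91. Over the 19123 genes tested the median difference was 0.00 for 1 h and 0.03 for 6 h. In no gene did a 0 h library exceed a heated one. With the lowest heated library set against the highest 0 h library, a comparison added after the values were seen, 33 of the 50 genes kept a difference of at least 3 at both times. The smallest such difference was 2.79 at 1 h and 2.27 at 6 h.

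**Figure D1:**
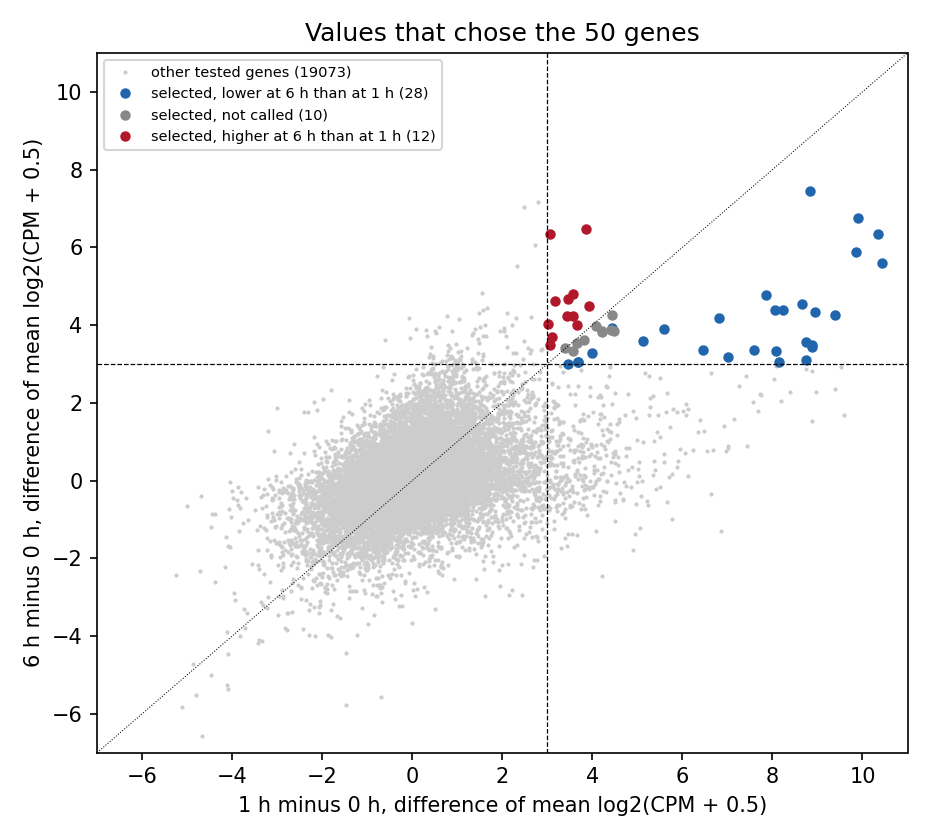
Difference of mean log2(CPM + 0.5) from 0 h at 1 h (x axis) and at 6 h (y axis) for the 19123 genes tested, 1 point per gene. The 50 selected genes are coloured by the edgeR call at 6 h against 1 h; dashed lines mark the limit of 3 on both axes and the dotted line marks equal differences. Of the selected genes, the 23 to the right of 5 on the x axis lie below the dotted line.

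The set has sharp edges only by construction. Just inside were Solyc04g007580.1, with a 6 h difference of 3.01, Solyc06g074030.1, with a 1 h difference of 3.01, and Solyc05g008130.4, with a 6 h difference of 3.04. Just outside were Solyc03g093560.1, with a 1 h difference of 2.99, Solyc09g015770.3, with a 6 h difference of 2.94, and Solyc01g103920.3, with a 6 h difference of 2.93. In all, 10 genes had the smaller of their 2 differences between 2.8 and 3, and 32 had it between 2.5 and 3.

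Most of the 50 genes were low in unheated leaves. At 0 h, 44 of them had a mean under 10 CPM and 14 had a mean under 1 CPM. The rule used this level, and these 14 genes passed the filter on low counts only through their heated libraries, so nothing is read from the numbers of low genes. The median level of the 50 genes was 2.37 CPM at 0 h, 124 CPM after 1 h and 54.6 CPM after 6 h. After 1 h, 14 genes exceeded 1000 CPM, and after 6 h, 14 genes exceeded 100 CPM. In 3 genes, Solyc04g077640.4, Solyc04g078880.3 and Solyc06g006010.3, both 0 h libraries held at most 3 counts, so no fold against 0 h is given for them.

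**Figure D2:**
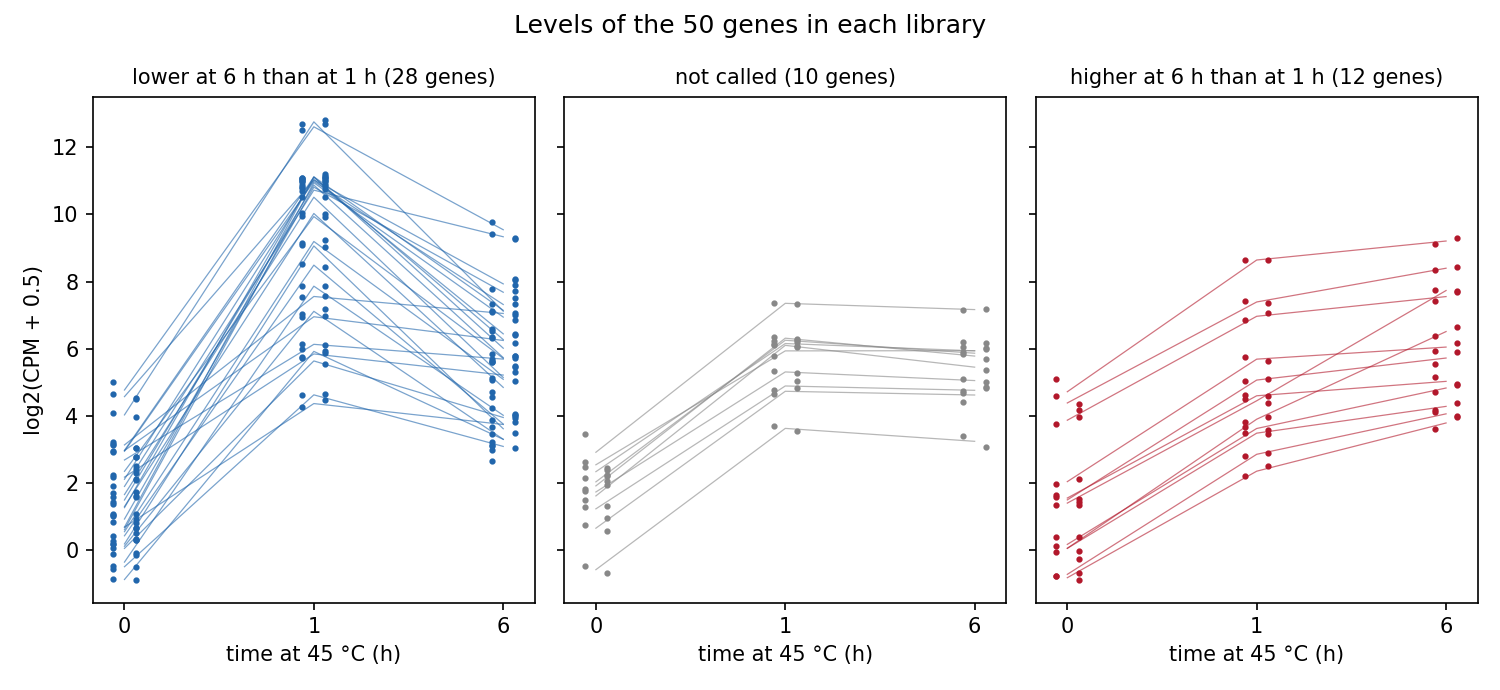
Level of each of the 50 genes, log2(CPM + 0.5), by time at 45 °C. Points are libraries (replicate 1 left, replicate 2 right at each time), lines join the means of the 2 libraries, and panels are divided by the edgeR call at 6 h against 1 h. In every panel all points at 1 h and 6 h of a gene lie above its points at 0 h.

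How the genes stood at 6 h relative to 1 h is the comparison that the rule did not name, although it uses the same libraries and equals the difference of the 2 values that the rule did use. Of the 50 genes, 28 were lower at 6 h than at 1 h and 12 were higher (edgeR quasi-likelihood test, adjusted p below 0.05 over all genes), and 10 were not called. Among all genes tested, 31.7% were called lower and 34.7% higher, so change between these times was common in these leaves. For the 50 genes the shares were 56.0% lower and 24.0% higher. The median log2 fold change, 6 h over 1 h, was -0.64 over the 50 genes and 0.06 over all genes. On the level scale the median over the 50 genes was also -0.64, and it was -0.41 under upper-quartile scaling and -0.22 with library size only. Both 6 h libraries lay below both 1 h libraries in 34 genes and above them in 12, and the libraries overlapped in 4. Among the 19123 genes tested these numbers were 7738, 8634 and 2751, so libraries that do not overlap were common. Leaving out 1 h replicate 1 left 27 genes lower and 7 higher.

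**Figure D3:**
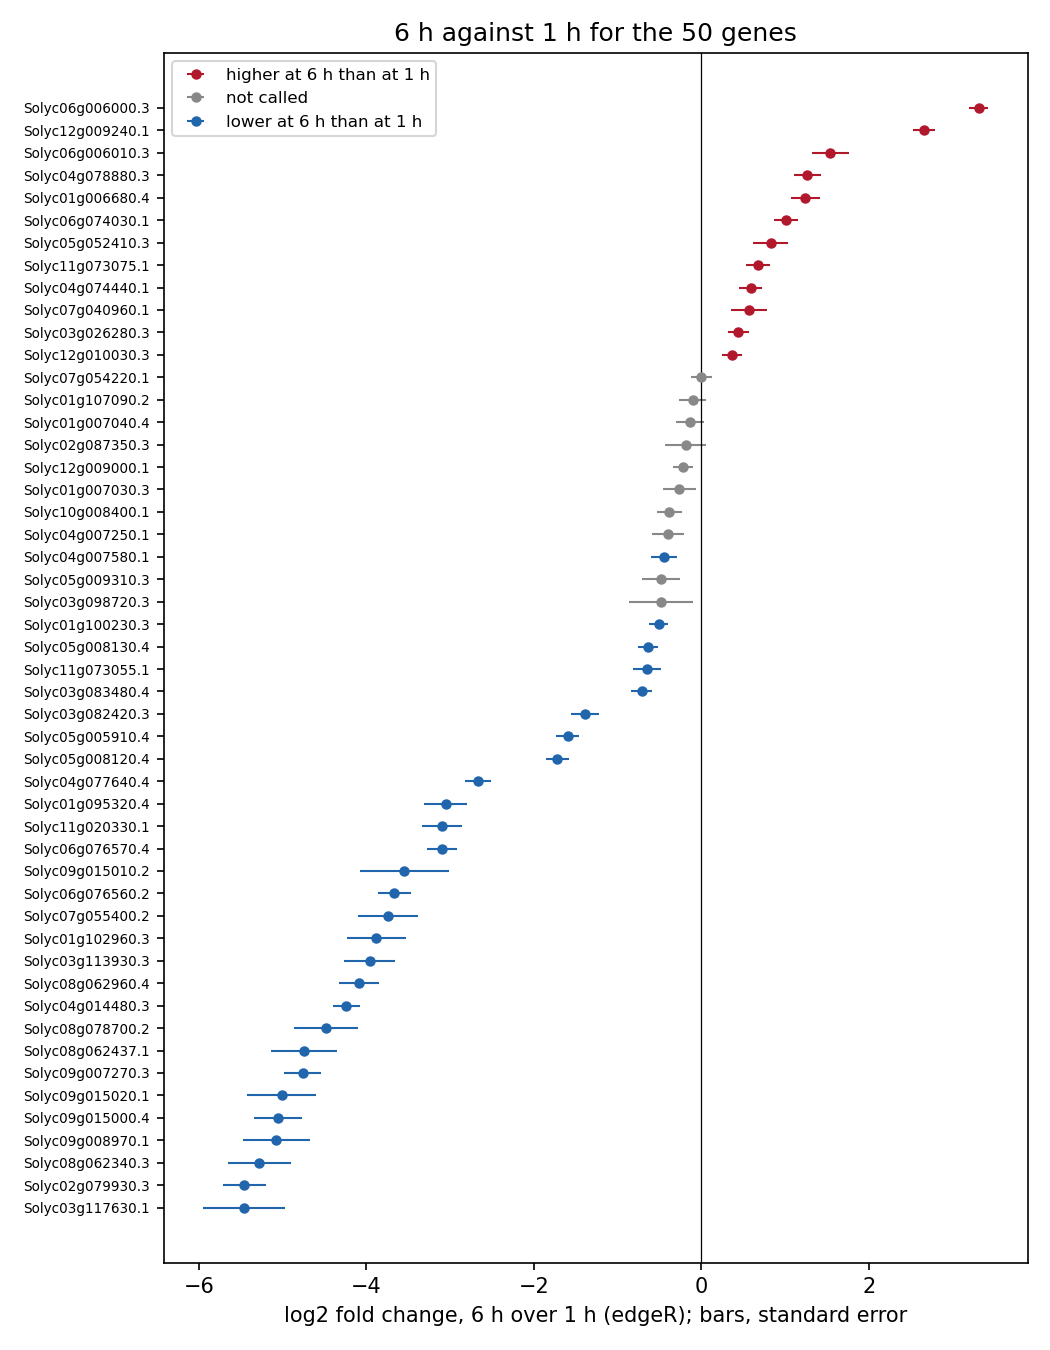
Log2 fold change at 6 h over 1 h from edgeR for each of the 50 genes, 1 gene per line from highest to lowest; bars are standard errors. Values run between 3.32 for Solyc06g006000.3 and -5.46 for Solyc03g117630.1, and an empty stretch between -0.71 and -1.39 separates the lower calls into a small and a large group.

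The genes were divided by their 1 h difference from 0 h, a division made after the values were seen. In 23 genes the 1 h difference from 0 h was at least 5 log2 units (5.13 to 10.44), and all 23 were lower at 6 h than at 1 h, with log2 fold changes between -1.39 and -5.46. In the other 27 genes it was at most 4.49. Of these, 5 were lower at 6 h, 12 were higher and 10 were not called. The division and the fold change use the same 1 h values, so the division by itself favours falls in the first kind. The rule leaves a gene of the second kind little room to fall, since its 6 h difference had to reach 3. Nor is the fall particular to the set, since all 102 tested genes with a 1 h difference of at least 5 were called lower at 6 h, 99 of them by at least 2 log2 units.

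Of the steep genes, Solyc03g117630.1 (chromosome 3, 62762594 to 62764558, minus strand) had the lowest value at 6 h relative to 1 h. It had 16.4 and 15.1 CPM at 0 h, 6616 and 7289.6 CPM after 1 h, and 80.9 and 236 CPM after 6 h. No gene tested had a higher mean CPM after 1 h, and at 6 h the mean was 2.28% of that at 1 h (log2 fold change -5.46 ± 0.49 SE, adjusted p = 2.89e-05). The rule asked for a 6 h mean far above 0 h. From its lower 6 h library to its higher 0 h library the difference was 2.27 log2 units, the smallest of the 50 genes.

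Solyc02g079930.3 (chromosome 2, 43916781 to 43920497, minus strand) had 0.542 and 0.722 CPM at 0 h, 549 and 519 CPM after 1 h, and 8.84 and 15.5 CPM after 6 h. Its log2 fold change of -5.45 ± 0.26 (SE, adjusted p = 1.39e-06) was close to that of Solyc03g117630.1, at a much lower abundance. Solyc08g062340.3 (chromosome 8, 51747577 to 51748349, minus strand) had 2.46 and 2.81 CPM at 0 h, 1467 and 1456 CPM after 1 h, and 22.9 and 52.5 CPM after 6 h, a log2 fold change of -5.28 ± 0.37 (SE, adjusted p = 8.56e-06). Solyc09g008970.1 (chromosome 9, 2398758 to 2399168, plus strand), at 411 bp the shortest of the 50 genes, had 1.5 and 2.49 CPM at 0 h, 1049 and 1040.0 CPM after 1 h, and 18.1 and 43.8 CPM after 6 h. Its log2 fold change was -5.08 ± 0.40 (SE, adjusted p = 1.54e-05). In each of these genes the 2 libraries at 1 h were close to each other, whereas the 2 libraries at 6 h stood apart with replicate 2 above.

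Other steep genes fell less and remained among the highest transcripts of the set. Solyc03g082420.3 (chromosome 3, 48385205 to 48386291, minus strand) had the largest 6 h difference from 0 h, 7.45 log2 units. Its levels were 2.71 and 3.77 CPM at 0 h, 1669 and 1716 CPM after 1 h, and 677 and 615 CPM after 6 h. At 6 h it held 38.2% of its 1 h level, the most of the 23 steep genes (log2 fold change -1.39 ± 0.17 SE, adjusted p = 0.000143). Per kilobase of gene it was also the highest of the 50 genes at 6 h, with a mean of 594 CPM per kb.

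Solyc11g020330.1 (chromosome 11, 11035696 to 11036268, plus strand) had 1.54 and 1.24 CPM at 0 h, 1765 and 1835 CPM after 1 h, and 159.9 and 262 CPM after 6 h. It stood 6.76 log2 units above 0 h at 6 h, second among the genes with more than 3 counts in every library, and was 8.54-fold lower at 6 h than at 1 h (adjusted p = 1.41e-05). Solyc01g095320.4 (chromosome 1, 80806826 to 80811865, plus strand) had 31.3 and 22.7 CPM at 0 h, 5864 and 6703 CPM after 1 h, and 884 and 629.8 CPM after 6 h. It had the highest CPM of the 50 genes at 6 h, although at 5040 bp it is long, and per kilobase its 6 h mean was 150.2 CPM. It was 8.30-fold lower at 6 h than at 1 h (adjusted p = 2.06e-05), and unlike most steep genes its replicate 2 was the lower one at 6 h.

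A further 4 steep genes were among the 10 with the largest 6 h difference from 0 h, of the genes with more than 3 counts in every library. Solyc03g113930.3 (chromosome 3, 59970587 to 59971153, plus strand) had 0.709 and 1.40 CPM at 0 h, 1885 and 2065 CPM after 1 h, and 92.2 and 162 CPM after 6 h. Solyc01g102960.3 (chromosome 1, 85806098 to 85806977, plus strand) had 2.21 and 1.61 CPM at 0 h, 2121 and 2344 CPM after 1 h, and 95.0 and 208 CPM after 6 h. Solyc08g062437.1 (chromosome 8, 51943341 to 51944474, minus strand) had 1.59 and 0.722 CPM at 0 h, 2187 and 2236 CPM after 1 h, and 51.3 and 114 CPM after 6 h. Of all genes tested, this last one had the largest 1 h difference from 0 h, 10.44 log2 units. Solyc08g062960.4 (chromosome 8, 53211703 to 53213726, minus strand) was less abundant than these 3 after both heat times, with 0.835 and 1.08 CPM at 0 h, 572 and 599 CPM after 1 h, and 25.8 and 43.2 CPM after 6 h. The log2 fold changes of these 4 genes, 6 h over 1 h, were -3.96 ± 0.30, -3.88 ± 0.35, -4.74 ± 0.40 and -4.08 ± 0.24 (SE) in the order given, with adjusted p between 3.68e-06 and 3.1e-05.

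The other 12 steep genes had between 5.82 and 269.9 CPM in the 6 h libraries, against between 23.8 and 2254 CPM in the 1 h libraries. Among them, Solyc05g005910.4 and Solyc05g008120.4, named after their values were seen, had log2 fold changes of -1.60 and -1.72 and were the smallest falls after that of Solyc03g082420.3. Solyc04g077640.4 had 1 count in each 0 h library, 1692 and 1373 counts after 1 h and 258 and 371 counts after 6 h.

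The 12 genes that were higher at 6 h than at 1 h all had 1 h differences under 4 log2 units (3.01 to 3.93) and 6 h differences between 3.48 and 6.46. Their rises between the heat times ran between 0.37 and 3.32 log2 units, and 6 of the 12 were of at least 1. No time after 6 h was sampled.

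Solyc06g006000.3 (chromosome 6, 1012165 to 1015360, minus strand) rose most. It had 2.04 and 2.21 CPM at 0 h, 22.2 and 20.4 CPM after 1 h, and 216 and 208 CPM after 6 h. The libraries of each time differed little, and the 6 h level was 9.96-fold that at 1 h (log2 fold change 3.32 ± 0.11 SE, adjusted p = 4.49e-07). Solyc12g009240.1 (chromosome 12, 2545042 to 2545788, minus strand) had 0.584 and 0.482 CPM at 0 h, 13.6 and 15.2 CPM after 1 h, and 82.9 and 98.8 CPM after 6 h, a 6.32-fold rise between the heat times (log2 fold change 2.66 ± 0.13 SE, adjusted p = 1.62e-06). Both genes stood more than 6 log2 units above 0 h at 6 h, a height that otherwise only Solyc03g082420.3, Solyc11g020330.1 and Solyc03g113930.3 among the 50 genes reached at that time.

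The other large rises were in genes of low abundance. Solyc06g006010.3 (chromosome 6, 1017979 to 1020883, plus strand) had 2 and 1 counts at 0 h, 111 and 122 counts after 1 h, and 371 and 523 counts after 6 h, and its level at 6 h was 2.91-fold that at 1 h (adjusted p = 0.000366). Solyc04g078880.3 (chromosome 4, 63320314 to 63322785, plus strand) had 2 and 3 counts at 0 h, 176 and 165 counts after 1 h, and 537 and 534 counts after 6 h, a 2.41-fold rise (adjusted p = 0.000197). Solyc01g006680.4 (chromosome 1, 1248418 to 1252725, minus strand) had 0.459 and 0.803 CPM at 0 h, 12.2 and 11.4 CPM after 1 h, and 25.7 and 30.2 CPM after 6 h, a 2.37-fold rise (adjusted p = 0.00027). In none of the 3 genes did a 6 h library overlap with a 1 h library, which also held for most genes tested.

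Abundant genes also rose. Solyc07g040960.1 (chromosome 7, 51372070 to 51373569, plus strand) had 33.3 and 19.8 CPM at 0 h, 397 and 401 CPM after 1 h, and 550.0 and 635 CPM after 6 h. Its 1.49-fold rise was close to the limit of the test (adjusted p = 0.043), and the call was lost without either 1 h library, without 6 h replicate 2 and under RLE scaling. Solyc06g074030.1 (chromosome 6, 48387720 to 48388514, minus strand) had 23.4 and 17.6 CPM at 0 h, 170.5 and 164 CPM after 1 h, and 327 and 346 CPM after 6 h, a 2.01-fold rise (adjusted p = 0.000343). These 2 genes, with Solyc01g095320.4, Solyc03g082420.3 and Solyc06g076570.4, had the highest CPM of the 50 genes at 6 h.

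The rises of the remaining 5 genes were between 1.29-fold and 1.78-fold. The smallest, 1.29-fold in Solyc12g010030.3, rested on 59.8 and 71.8 CPM after 6 h, against 53.1 and 48.9 CPM after 1 h (adjusted p = 0.0249), and DESeq2 did not call it. Solyc11g073075.1 kept the call with any 1 library left out, and Solyc04g074440.1 lost it only without 1 h replicate 1. Solyc05g052410.3, Solyc03g026280.3 and Solyc12g010030.3 lost it without either 1 h library. They also lost it without a 6 h library, replicate 1 for Solyc03g026280.3 and replicate 2 for the other two.

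The 5 genes of smaller 1 h difference that were lower at 6 h had log2 fold changes between -0.44 and -0.71. Solyc03g083480.4, named after its values were seen, had 78.7 and 71.9 CPM after 6 h, against 122 and 124 CPM after 1 h, and 8.35 and 6.34 CPM at 0 h (log2 fold change -0.71 ± 0.13 SE, adjusted p = 0.00127). Solyc04g007580.1 (chromosome 4, 1306677 to 1307171, plus strand) had 7.26 and 4.78 CPM at 0 h, 70.4 and 68.4 CPM after 1 h, and 47.9 and 54.3 CPM after 6 h. With a log2 fold change of -0.44 ± 0.16 (SE) its call was the weakest of the 28 (adjusted p = 0.0332). All 5 calls were lost when counts were scaled by library size alone, under which the median log2 fold change of all genes was 0.485 in place of 0.0597.

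The 10 genes that were not called had log2 fold changes between -0.48 and 0.00, 9 of them below 0. At 6 h they held between 71.5% and 99.96% of their 1 h level. Solyc07g054220.1, the nearest to no difference, had 59.0 and 62.7 CPM after 6 h, against 54.4 and 67.3 CPM after 1 h, and 5.63 and 4.98 CPM at 0 h. A missed threshold does not show that a level held. Solyc03g098720.3 is an example, with 26.0 and 71.2 CPM after 6 h against 69.7 and 66.2 CPM after 1 h. Its 6 h libraries disagreed, and its log2 fold change of -0.48 ± 0.38 (SE, adjusted p = 0.288) became -1.39 without 6 h replicate 2, which was called, and 0.07 without 6 h replicate 1. Both of these genes were named after their values were seen.

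The 50 genes held a larger share of all counts after heat than before it. This follows from the rule, so the shares are given as a description. Before heat they held 0.0249% and 0.0220% of all counts. After 1 h they held 3.5% and 3.64%, and after 6 h they still held 0.577% and 0.710%. The 23 steep genes accounted for nearly all of this at 1 h, with 3.33% and 3.47%, and for 0.308% and 0.398% at 6 h. The other 27 genes held 0.170% in both 1 h libraries and 0.269% and 0.312% at 6 h. At 1 h, 31.5% and 33.2% of the counts of the set belonged to Solyc03g117630.1 and Solyc01g095320.4 alone. Of the 51 genes tested with over 40000 counts in both 1 h libraries, 12 were in the set. Nothing is read from this number, since the rule used the 1 h levels.

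**Figure D4:**
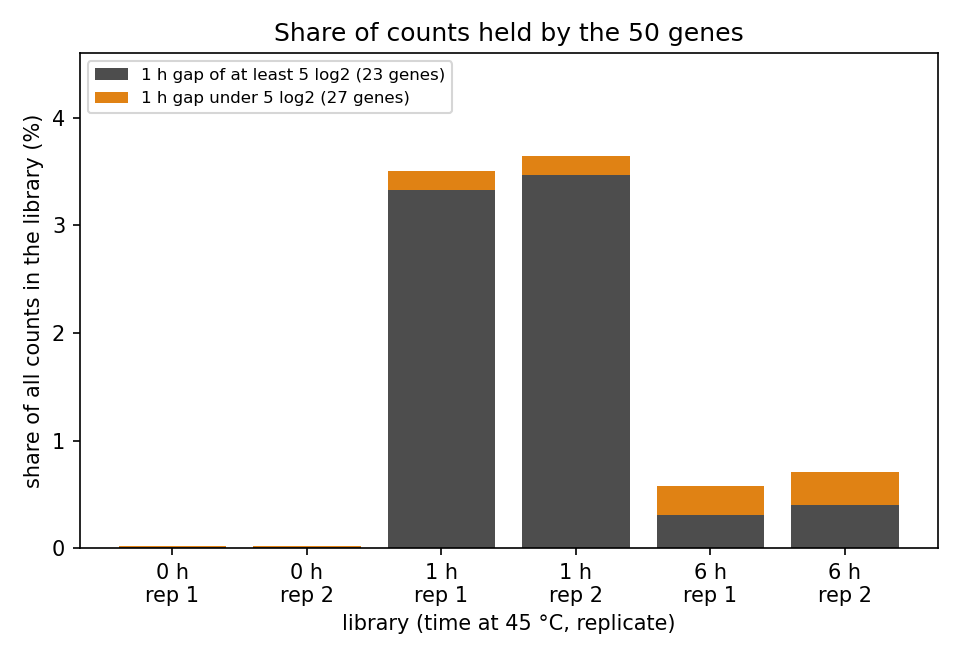
Share of all counts of a library (%) held by the 50 genes, in the 6 libraries by time at 45 °C and replicate. Bars are stacked, with the 23 genes of 1 h difference at least 5 log2 units below and the other 27 genes above; the total was 3.5% and 3.64% after 1 h, and 0.577% and 0.710% after 6 h.

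The 2 libraries at 6 h often stood apart in these genes. In 6 h replicate 2, 38 of the 50 genes were higher than in replicate 1, and among the 23 steep genes 20 were. Of the 19123 genes tested, 9430 were. The difference, replicate 2 over replicate 1, was at least 1 log2 unit in 10 of the 50 genes (20%), 9 of them steep. Replicate 2 was higher by that much in 0.377% of all genes tested. At 1 h the replicates of the 50 genes differed by at most 0.30 log2 units. What moved with this difference was not tested. The widest was that of Solyc09g015010.2, 2.04 log2 units. Without 6 h replicate 2 its log2 fold change, 6 h over 1 h, was -4.96 in place of -3.54, and without 6 h replicate 1 it was -2.85.

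Leaving out 6 h replicate 2 moved 8 other steep genes by over 1.5 times in fold. The log2 fold change became -6.43 in Solyc03g117630.1, -6.00 in Solyc08g062340.3, -5.85 in Solyc09g008970.1 and -5.83 in Solyc09g015020.1. It became -5.43 in Solyc08g062437.1, -5.22 in Solyc08g078700.2, -4.57 in Solyc07g055400.2 and -4.55 in Solyc01g102960.3. All of these are larger falls than with both libraries, and all stayed called. Their direction was the same with either 6 h library left out. Membership of the set was less stable. Without 6 h replicate 2, 43 of the 50 genes still met the rule, and without 6 h replicate 1 all 50 did. From the lower 6 h library to the higher 0 h library, the difference was 2.27 in Solyc03g117630.1 and 2.32 in Solyc07g055400.2. It was 2.64 in Solyc09g008970.1 and 2.82 in Solyc08g062340.3, under the limit of 3, and at least 3.47 in the others of these 8 genes.

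**Figure D5:**
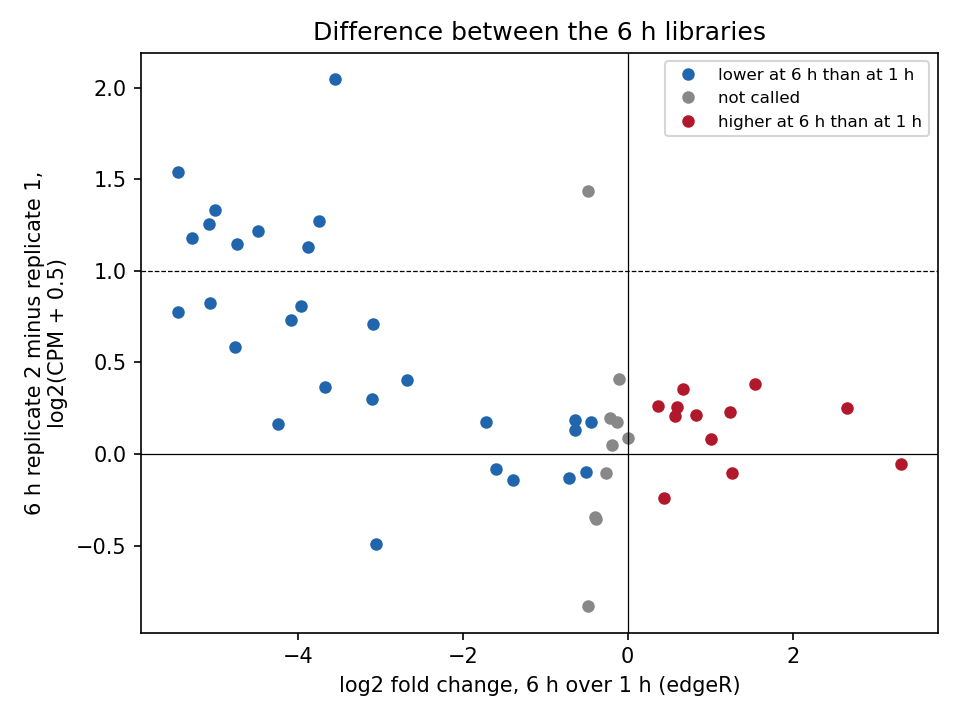
Difference between the 2 libraries at 6 h, replicate 2 minus replicate 1 in log2(CPM + 0.5) (y axis), against the log2 fold change at 6 h over 1 h (x axis), for the 50 genes. The dashed line marks a difference of 1, which 10 genes exceed, 9 of them with a fall of more than 3 log2 units.

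The genes lay on all 12 chromosomes, 26 on the plus and 24 on the minus strand. Chromosome 5 held 5 of its 1284 genes tested (0.389%), the highest share, and chromosome 10 held 1 of 1262 (0.0792%), the lowest. Another gene of the set lay within 50 kb of 13 of the 50 genes (26.0%). Of the 431 genes past the limit at 1 h, 27.8% had such a neighbour among their own group, and of the 136 genes past it at 6 h, 23.5% had. A larger group offers more possible neighbours, so these shares cannot be compared with that of the set. Whether the genes of the set lay closer together than other genes was not tested.

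On chromosome 9, Solyc09g015000.4 (7536107 to 7537148, plus strand) stood beside Solyc09g015010.2 (7539994 to 7549652, minus strand) and Solyc09g015020.1 (7549018 to 7549482, plus strand). Solyc09g015000.4, the gene of the contact primers, had 7.01 and 7.63 CPM at 0 h, 2188 and 2254 CPM after 1 h, and 48.0 and 85.3 CPM after 6 h, a log2 fold change of -5.06 ± 0.29 between the heat times (SE, adjusted p = 3.26e-06). Solyc09g015020.1 had 2.09 and 2.53 CPM at 0 h, 1823 and 1936 CPM after 1 h, and 33.0 and 83.7 CPM after 6 h (log2 fold change -5.01 ± 0.41 SE, adjusted p = 1.83e-05). Per kilobase it was the highest of the 50 genes at 1 h, at 4043 CPM per kb. The whole of it, 465 bp, lies within Solyc09g015010.2 on the other strand, which had 0.167 and 0.401 CPM at 0 h, 234 and 231 CPM after 1 h, and 7.44 and 32.2 CPM after 6 h. Counting was by strand, but how much of the signal of Solyc09g015010.2 came from misassigned reads of its far more abundant partner was not tested.

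A second group of neighbours lay on chromosome 6. Solyc06g076560.2 (50224899 to 50225744, plus strand) had 8.14 and 6.30 CPM at 0 h, 2009 and 2048 CPM after 1 h, and 139.7 and 180.4 CPM after 6 h. Solyc06g076570.4 (50229439 to 50230009, plus strand) had 24.5 and 22.0 CPM at 0 h, 2066 and 2113 CPM after 1 h, and 219 and 269.9 CPM after 6 h. The 3694 bp between them hold no other annotated gene, and their log2 fold changes between the heat times were -3.66 and -3.10 (adjusted p = 2.6e-06 and 2.99e-06). Nearby, Solyc06g076520.1 (50213867 to 50214331, minus strand) reached 2094 and 2167 CPM after 1 h but lay outside the set, since its 6 h difference from 0 h was 2.64. Solyc06g076550.4 (50220988 to 50222572, minus strand), also outside the set, had 1 and 0 counts at 0 h. It had 150 and 96 counts after 1 h, and 1 and 1 after 6 h. Solyc06g076540.1 and a second model of the same ID, each 465 bp long like Solyc06g076520.1, held at most 1 count in any library. Reads that fit several copies equally well are mostly lost to the mapping quality filter, and its part in these values was not tested.

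Again on chromosome 6, the strongest riser, Solyc06g006000.3, pointed away from Solyc06g006010.3, whose start lies 2618 bp beyond it, and both were higher at 6 h than at 1 h. On chromosome 5, Solyc05g008120.4 (2548908 to 2550531, minus strand) and Solyc05g008130.4 (2551334 to 2552528, plus strand) likewise point away from each other, with 802 bp between them. The first had 0.626 and 0.441 CPM at 0 h, 52.3 and 46.1 CPM after 1 h, and 14.0 and 15.9 CPM after 6 h. The second had 4.17 and 3.81 CPM at 0 h, 53.3 and 60.5 CPM after 1 h, and 34.2 and 39.0 CPM after 6 h. They reached like CPM after 1 h and both fell, with log2 fold changes of -1.72 ± 0.13 and -0.64 ± 0.12 (SE, adjusted p = 1.46e-05 and 0.00146).

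On chromosome 1, Solyc01g007030.3 (1568840 to 1569678) and Solyc01g007040.4 (1569690 to 1570370) lay on the minus strand only 11 bp apart. The first had 3.92 and 1.97 CPM at 0 h, 39.8 and 38.2 CPM after 1 h, and 33.8 and 31.4 CPM after 6 h. The second had 2.29 and 1.44 CPM at 0 h, 26.4 and 31.9 CPM after 1 h, and 24.9 and 28.2 CPM after 6 h. Neither was called between the heat times (adjusted p = 0.266 and 0.505), and whether the 2 models are separate transcripts cannot be read from counts.

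The members of the pair on chromosome 11 went in opposite directions. They lay 11518 bp apart with 2 annotated genes between them. Of these, Solyc11g073060.3 was outside the set, with a difference from 0 h of 4.50 at 1 h and 2.25 at 6 h. Solyc11g073055.1 (59413656 to 59414159, minus strand) had 12.2 and 13.5 CPM after 6 h, against 18.5 and 21.7 CPM after 1 h, and 1.29 and 0.923 CPM at 0 h. Solyc11g073075.1 (59425678 to 59430026, plus strand) had 46.1 and 59.0 CPM after 6 h, against 32.1 and 33.7 CPM after 1 h, and 2.59 and 2.05 CPM at 0 h. The log2 fold changes were -0.64 ± 0.16 and 0.68 ± 0.14 (SE, adjusted p = 0.00769 and 0.00295). On chromosome 3, Solyc03g026280.3 (3682758 to 3683654, plus strand) had 34.8 and 29.4 CPM after 6 h, against 24.0 and 23.3 CPM after 1 h, and 2.5 and 2.33 CPM at 0 h. Its upstream neighbour Solyc03g026270.3, for which the study also had contact primers, was outside the set, with 1.43 and 1.02 CPM after 6 h, against 4.64 and 4.15 CPM after 1 h, and 1.42 and 0.722 CPM at 0 h.

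The 50 genes had short spans. Their median span was 1153.5 bp, introns included, against 3709 bp over all genes tested, and 42.0% of them were no longer than 1000 bp, against 11.6% of all genes tested. Steep and other genes had like medians, 1134 and 1173 bp. Per the alignment names, PCR duplicates had been removed, a step that can limit the reads a short gene keeps. At 1 h, 11 of the 50 genes held over 50 counts per bp, of 25 such genes in all. The highest value in the set was 106 counts per bp in Solyc09g015020.1. That is above the 1 read per start position that such a step would leave of single reads, so its nature is unknown, and whether it lowered the 1 h levels was not tested. Besides the chromosome 9 pair, 3 genes overlapped a gene on the other strand, Solyc01g095320.4, Solyc03g082420.3 and Solyc11g073055.1. Without the 5 overlapping genes, a setting added after the values were seen, 23 genes were lower at 6 h and 12 were higher.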

How the data were processed

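For 6 libraries, raw counts per gene were deposited. The authors used featureCounts 2.0.0 on the M82 gene models 1.1.0, per the header, by strand, with mapping quality of at least 30, counting multi-mapped reads and every gene a read overlaps. A gene's length is its whole span, introns included. The submitters' processing notes name Trimmomatic 0.38, Bowtie2 2.3.5 and SAMtools 1.9, the alignment names say that PCR duplicates were removed, and the methods of the study name STAR. The aligner behind the counts, and whether reads or fragments were counted, was not settled.

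Tested genes reached 50 counts in 2 libraries or more (the filter of the study), and levels are CPM after TMM scaling. An edgeR 4.0.16 model per gene (R 4.3.3) took in the 6 libraries, and 6 h was tested against 1 h, with a two-sided quasi-likelihood F test and Benjamini-Hochberg adjustment over 19123 genes at 0.05. The common coefficient of variation was 12.3%, the fit having 3 residual and 5.42 prior degrees of freedom. Alternatives were DESeq2 1.42.0, other scalings, pseudocounts, filters and thresholds, the replicate block and leaving out each library.

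The genes and lists were chosen with earlier results of these data known. Named genes were the 10 with the largest 6 h difference among those with more than 3 counts in each library, the 5 lowest and 5 highest at 6 h against 1 h, the 5 highest at 6 h, the 3 just inside and 3 just outside the rule, and those within 50 kb of each other. Gene families, leaf markers and promoter motifs were not analysed here, since 0 of the 50 IDs matched the RefSeq gene table.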

Additional observations from a re-analysis of the deposited data

Results flagged for a closer look

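The 50 genes had the same direction against 0 h at both times by the rule, but opposite directions between the heat times, which is why both counts are set out here. Of the 50 genes, 28 were called lower at 6 h than at 1 h and 12 were called higher by edgeR, and the other 10 were not called. All 28 kept a negative and all 12 a positive log2 fold change in each of 16 alternative settings. In the settings with a stricter adjusted p or a minimum fold change the sign could not change, since they reuse the main fit. Some calls were lost, such as that of Solyc04g007580.1, which was at -0.013 with library size only. The difference between the 2 kinds of genes was not tested, since it was seen in the values first.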

How the results depend on the processing

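The number of genes that met the rule was 82 with a limit of 2.5, 29 with a limit of 3.5, 73 with a pseudocount of 0.1, 35 with a pseudocount of 1, 33 with the lowest heated library against the highest 0 h library, and between 44 and 57 with 1 library left out. The median 1 h difference of 4.43 was 4.29 under upper-quartile scaling, 4.28 with library size only, 4.97 with a pseudocount of 0.1 and 4.31 with a pseudocount of 1. The median 6 h difference of 3.91 was 4.24 with a pseudocount of 0.1 and 3.66 with a pseudocount of 1. It was 4.17 with library size only, 4.11 without 6 h replicate 1 and 3.77 without 6 h replicate 2. The median difference at 6 h from 1 h, -0.64, was -0.41 under upper-quartile scaling, -0.22 with library size only, -0.72 without 1 h replicate 1 and -0.71 without 6 h replicate 2. The count of genes higher at 6 h than at 1 h was 6 with a minimum log2 fold change of 1, 13 with library size only, and between 7 and 12 with 1 library left out; the fit then has fewer samples. Genes lower at 6 h numbered between 23 and 31 in all settings. The replicate number used as a block gave 28 lower and 12 higher, with no call changed. Correlations of the deviations of same-numbered libraries were -0.0956 for 0 h with 1 h, -0.0222 for 0 h with 6 h and 0.199 for 1 h with 6 h. They were not all above 0.1, so the numbers were taken as names only.

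Signs turned only in genes that were not called. With library size only, log2 fold changes at 6 h over 1 h were 0.0221 in Solyc04g007250.1, 0.0412 in Solyc10g008400.1, 0.16 in Solyc01g007030.3, 0.21 in Solyc12g009000.1, 0.24 in Solyc02g087350.3, 0.30 in Solyc01g007040.4 and 0.33 in Solyc01g107090.2. That scaling moves the median of all genes to 0.485, against 0.0597 with TMM. Upper-quartile scaling gave 0.0144 in Solyc12g009000.1, 0.0432 in Solyc02g087350.3, 0.10 in Solyc01g007040.4 and 0.13 in Solyc01g107090.2. With 1 library left out the value lay between -1.39 (without 6 h replicate 2, called) and 0.0674 (without 6 h replicate 1) in Solyc03g098720.3, between -0.324 (without 6 h replicate 2) and 0.0927 (without 6 h replicate 1) in Solyc01g107090.2, and between -0.265 (without 1 h replicate 1) and 0.00765 (without 1 h replicate 2) in Solyc01g007040.4. Solyc07g054220.1, at 0.00, went to -0.053 with RLE, -0.0531 with DESeq2, -0.0146 with no filter, -0.0208 with filterByExpr, -0.0349 with only the libraries at 1 h and 6 h, and lay between -0.15 and 0.16 with 1 library left out; with library size only it was 0.43 and called higher (adjusted p = 0.0129). The cause was not tested in these genes. Of the 50 genes, 29 had the same direction and call in all 16 settings. With 2 libraries per time, small differences between the heat times may be missed.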
